A study of Mus musculus with 30 samples.

Results

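A set of 32 genes of cholesterol and fatty acid synthesis was described across the RNA-seq libraries of a study of cultured mouse brain endothelial cells (ECs). The genes were taken by name from a list, and their transcripts were summed by gene identifier. All 32 were found among the 21820 protein-coding genes analysed, and all 32 had enough counts to be tested in each comparison. They comprise 7 genes of the mevalonate and isoprenoid steps, 11 genes of the sterol steps from squalene onward, 6 genes of the SREBP regulators with a sterol carrier, and 8 genes of fatty acid synthesis and desaturation.

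Cholesterol is built from acetyl-CoA through mevalonate, isoprenoid pyrophosphates and squalene, and the ring-shaped sterols are then trimmed and reduced to cholesterol. SREBP transcription factors are held in the endoplasmic reticulum by INSIG and SCAP proteins when sterols are plentiful, and they enter the nucleus and turn on both sterol and fatty acid genes when sterols are scarce. The blood-brain barrier keeps plasma lipoproteins out of the brain, so that glial cells, above all myelin-forming oligodendrocytes and astrocytes, make most brain cholesterol locally, whereas ECs face the blood and can take up lipid from it.

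The RNA-seq data comprised 14 libraries. Acutely isolated cells came from the brains of adult male Tie2-GFP mice, in which the Tie2 promoter drives GFP in ECs and also in some blood cells, and were sorted into GFP-positive cells (acute ECs, 2 libraries) and GFP-negative cells (2 libraries) and sequenced as single reads of 75 cycles. The paper states that its adult brain EC data combine those of cerebrum and cerebellum. WT brain ECs were purified with puromycin and cultured for 8 days in 6 libraries of paired reads, from adult male mice like all cultures. WT replicates 1 and 2 came from C57BL/6J mice by isolation method A with 36 cycles. WT replicates 3 and 4 came from Ctnnb1flex3/+;Tie2-GFP mice by method B with 150 cycles at another facility, and WT replicates 5 and 6 from the same genotype by method B with 36 cycles. Stabilized cultures came from Ctnnb1flex3/+;Pdgfb-CreER;Tie2-GFP mice, in which Cre under the Pdgfb promoter removes exon 3 of Ctnnb1 and leaves beta-catenin protein that is not degraded. They were grown in the same way in 4 libraries of 36 cycles, with method A used for replicates 1 and 2 and method B for replicates 3 and 4. The flex3 control mice had received 4-hydroxytamoxifen like the stabilized mice, and whether the C57BL/6J mice had is not clear from the sources used here. Brains were pooled for each culture, and the 2 wells of each culture experiment are its replicates, so that p-values measure the spread between wells and libraries. Within method A, and within method B at 36 cycles, each genotype is 1 experiment, so that experiment and genotype (and under method A strain) cannot be told apart there, nor can culture and read type.

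Libraries held 24284843 to 94686456 counts. Nuclear protein-coding genes took 26.5% to 63.1% of the deposited TPM, a level per transcript length, in 12 libraries, but 94.3% and 94.1% in the 150-cycle libraries, so levels are given as TPM rescaled so that nuclear protein-coding genes have the same total, that of TPM itself, in every library. Comparisons between groups are given as CPM, counts scaled to the size of the library by TMM, and as log2 fold changes ± SE from the count model. Endothelial markers (6 genes) summed to a rescaled TPM of 8760.3 and 6538 in acute ECs, 17.2 and 68.7 in GFP-negative cells, 1660 to 4174 in WT cultures and 2328 to 5322 in stabilized cultures. Axin2, a target of beta-catenin signaling, had a rescaled TPM of 0.22 to 0.61 in WT and 2.48 to 3.10 in stabilized cultures, whereas the deletion of Ctnnb1 exon 3 cannot be read from gene sums. Stabilized replicate 4 is recorded with a molecule other than RNA, but was kept on the strength of its title and protocol.

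Promoter sequences are shown for 3 of the genes because their windows hold the letters that SREBPs or E-box factors are known to bind. RefSeq windows of 300 bases (build GRCm38.p6), from 250 bases before to 50 bases after the start, were found for 25 of the 32 genes and for 27025 genes in all, and were searched on both strands for 4 motifs. The sterol regulatory element TCACNCCAC was present at 1 of the 25 genes, Hmgcs1, and at 1.44% of all genes. The E-box CACGTG was present at 5 of 25 (8.09% of all genes), CCAAT at 20 of 25 (41.1% of all) and GGGCGG at 21 of 25 (38.2% of all). Hmgcs1 was chosen for its TCACNCCAC match, and the windows of Hsd17b7 and Insig1 were added after their values were seen, because they hold CACGTG and were higher in culture. The other genes with CACGTG were Sc5d, Dhcr7 and Scap. They are not printed, although Scap was also called higher in culture. Capitals mark every match to these 4 motifs on either strand in the printed bases, and no marked match overlaps another. Each window is printed 5′ to 3′ on the strand of the gene. It ends at the base before the RefSeq start (Hmgcs1) or before the outermost annotated start where that comes first (Hsd17b7 and Insig1).
Hmgcs1, chr13:119690101-119690350, plus strand: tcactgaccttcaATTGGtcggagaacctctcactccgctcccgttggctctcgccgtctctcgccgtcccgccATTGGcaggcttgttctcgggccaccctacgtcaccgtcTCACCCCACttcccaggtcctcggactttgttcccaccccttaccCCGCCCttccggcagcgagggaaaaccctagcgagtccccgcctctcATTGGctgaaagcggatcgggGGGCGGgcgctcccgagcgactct
Hsd17b7, chr1:169969242-169969455, minus strand: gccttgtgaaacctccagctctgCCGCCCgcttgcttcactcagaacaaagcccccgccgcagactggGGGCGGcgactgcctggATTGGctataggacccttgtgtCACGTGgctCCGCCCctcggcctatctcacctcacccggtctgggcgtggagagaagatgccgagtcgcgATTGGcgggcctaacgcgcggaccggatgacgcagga
Insig1, chr5:28071162-28071362, plus strand: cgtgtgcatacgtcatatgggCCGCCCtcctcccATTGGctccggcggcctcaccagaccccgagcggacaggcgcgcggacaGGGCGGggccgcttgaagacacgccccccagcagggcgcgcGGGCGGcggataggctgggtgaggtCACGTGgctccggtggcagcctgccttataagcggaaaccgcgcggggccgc
In Hmgcs1 the sterol regulatory element begins at position -137 from the RefSeq start, and the E-boxes of Hsd17b7 and Insig1 begin at positions -143 and -101. These matches describe the letters of the windows only.

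Accessible chromatin was found near the starts of nearly all of the genes in each group. An ATAC-seq peak lay within 1000 bases of the outermost annotated start in every library for 28 of the 32 genes in acute ECs (50.7% of all genes), for 27 in WT cultures (49.3% of all genes) and for 29 in stabilized cultures (57.4% of all genes). A peak in every library is a stricter demand on 6 WT libraries than on 2 acute or 2 stabilized ones. Both stabilized libraries were of method B, whereas 2 WT libraries were of method A and of another strain than the other WT libraries. These 2 had the fewest WT peaks (50450 and 33152), with a peak at 29 and 27 of the genes. A difference between WT and stabilized counts cannot be told apart from method, strain and number of libraries. The peak at Hmgcs1, near the window printed above, had a fold enrichment of 18 and 18.4 in acute ECs and of 18.3 to 22.4 in WT cultures. At Hsd17b7 it was 26.5 and 25.7 in acute ECs and 23.6 to 28.5 in WT cultures. At Insig1 it was 19.2 and 17.9 in acute ECs and 11.2 to 14.9 in WT cultures. Fold enrichments were not compared over all genes. No peak lay at the outermost starts of Pmvk, Fdft1 and Insig2 in any library, although another annotated transcript start of each had one in 2 of 2 acute and at least 5 of 6 WT libraries. The elongase gene Elovl6 had a peak at its outermost start in 0 of 2 acute, 5 of 6 WT and 2 of 2 stabilized libraries, with 31844 and 37453 peaks called in the acute libraries and 33152 to 98840 in the WT libraries.

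By summed rescaled TPM the 32 genes together took a similar level in acute ECs and in culture, and a higher one in GFP-negative cells. Their summed rescaled TPM was 3439.5 and 3247 in GFP-negative cells, 1040.0 and 1103 in acute ECs, 959.7 to 1278 in WT cultures and 1114 to 1205 in stabilized cultures. The steps differed in this respect. Sterol steps from squalene summed to 218 and 194 in acute ECs and to 312.5 to 404 in WT cultures, so that these groups did not overlap. Mevalonate and isoprenoid steps summed to 245 and 210.1 in acute ECs and to 226 to 324 in WT cultures, which overlapped. The SREBP regulators summed to 297 and 511 in acute ECs and to 242 to 327 in WT cultures, and the fatty acid genes to 281 and 187 against 163 to 243, both with overlap. The regulator sums and the sums of all 32 genes include short Insig2 transcripts. Of these Insig2-209 (204 bases) had a deposited TPM of 0 and 85.2 in acute ECs and 15.7 and 288.9 in GFP-negative cells. It was at 0 in every culture. Insig2 had a mean rescaled TPM of 202 in acute ECs, 558 in GFP-negative cells and 32.8 in WT cultures. The sums were not compared without it.

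**Figure D1:**
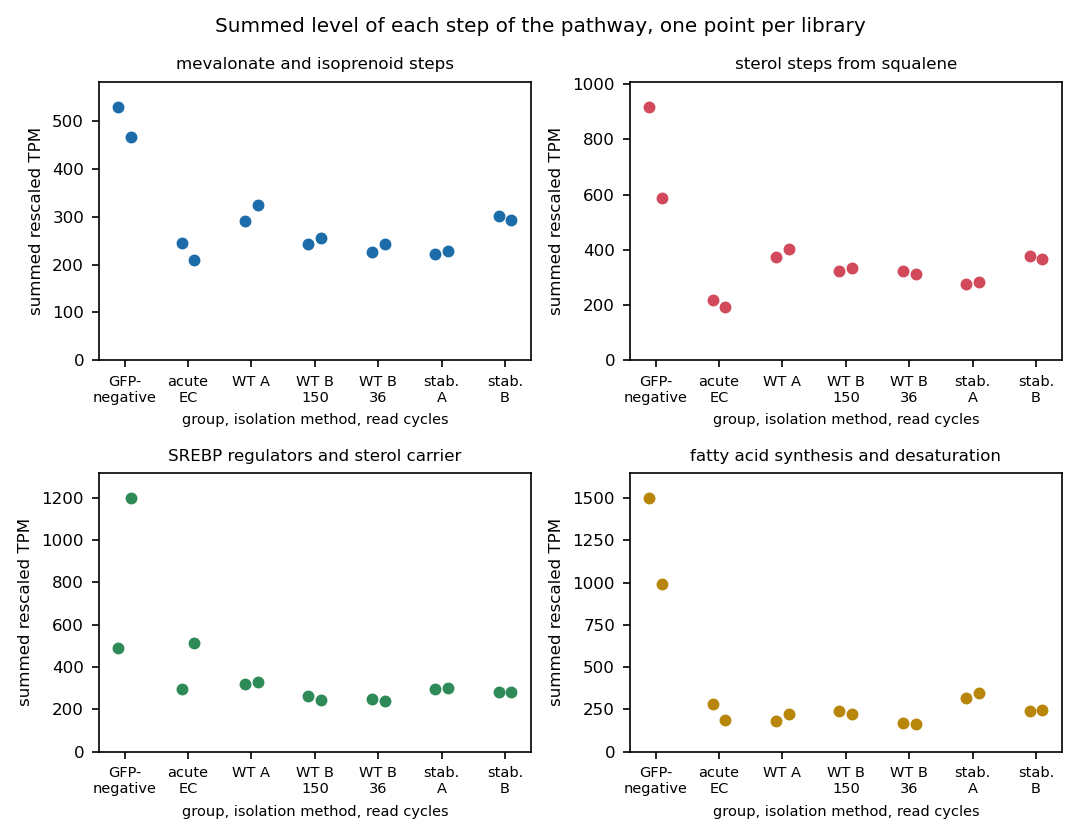
Summed rescaled TPM (linear axis from 0) of the genes of each step in each library, by group, isolation method and read cycles, with 1 point per library. In the panel of sterol steps the 6 WT points lie at 312.5 to 404, above both acute EC points at 218 and 194.

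Within acute ECs the levels of single genes spanned from a mean rescaled TPM of 202 for Insig2 to 1.73 for the desaturase gene Fads2. Insig2, which encodes an INSIG protein that retains SREBPs, had 46.0 and 357 in the 2 acute libraries, and the library with the higher value had reads on the short transcripts Insig2-209 (204 bases, deposited TPM 85.2, at 0 in acute library 1) and Insig2-206 (a retained intron of 334 bases, 39.5 against 1.29), both at 0 in every culture. Other high levels were those of Srebf1, which encodes an SREBP (128 and 41.1), the desaturase gene Fads1 (126 and 29.4) and Hmgcs1, whose enzyme joins acetoacetyl-CoA and acetyl-CoA to HMG-CoA (81.2 and 57.9). With 2 libraries that differed this much, the order of these 4 genes was not larger than their spread. Ebp, the gene of a sterol isomerase, had the highest mean of the sterol steps (48.7 and 43.5), within the spread of Msmo1 (43.5 and 45.4). Scap had the lowest mean of the regulators (31.2 and 15), with Srebf2 (27.2 and 23.2) and Insig1 (27.5 and 30.7) within its range. The lowest levels were those of Fads2 (2.20 and 1.25), of the sterol reductase gene Tm7sf2 (2.28 and 2.39) and of Mvd, which encodes mevalonate diphosphate decarboxylase (3.29 and 1.67). In WT cultures the order was led by Msmo1, which encodes a sterol C4-methyl oxidase (111.8 ± 20.2, SD, n = 6), Insig1 (99.5 ± 52.4) and Fdps, the gene of farnesyl diphosphate synthase (91.4 ± 18.9), and these 3 did not differ beyond their spread.

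**Figure D2:**
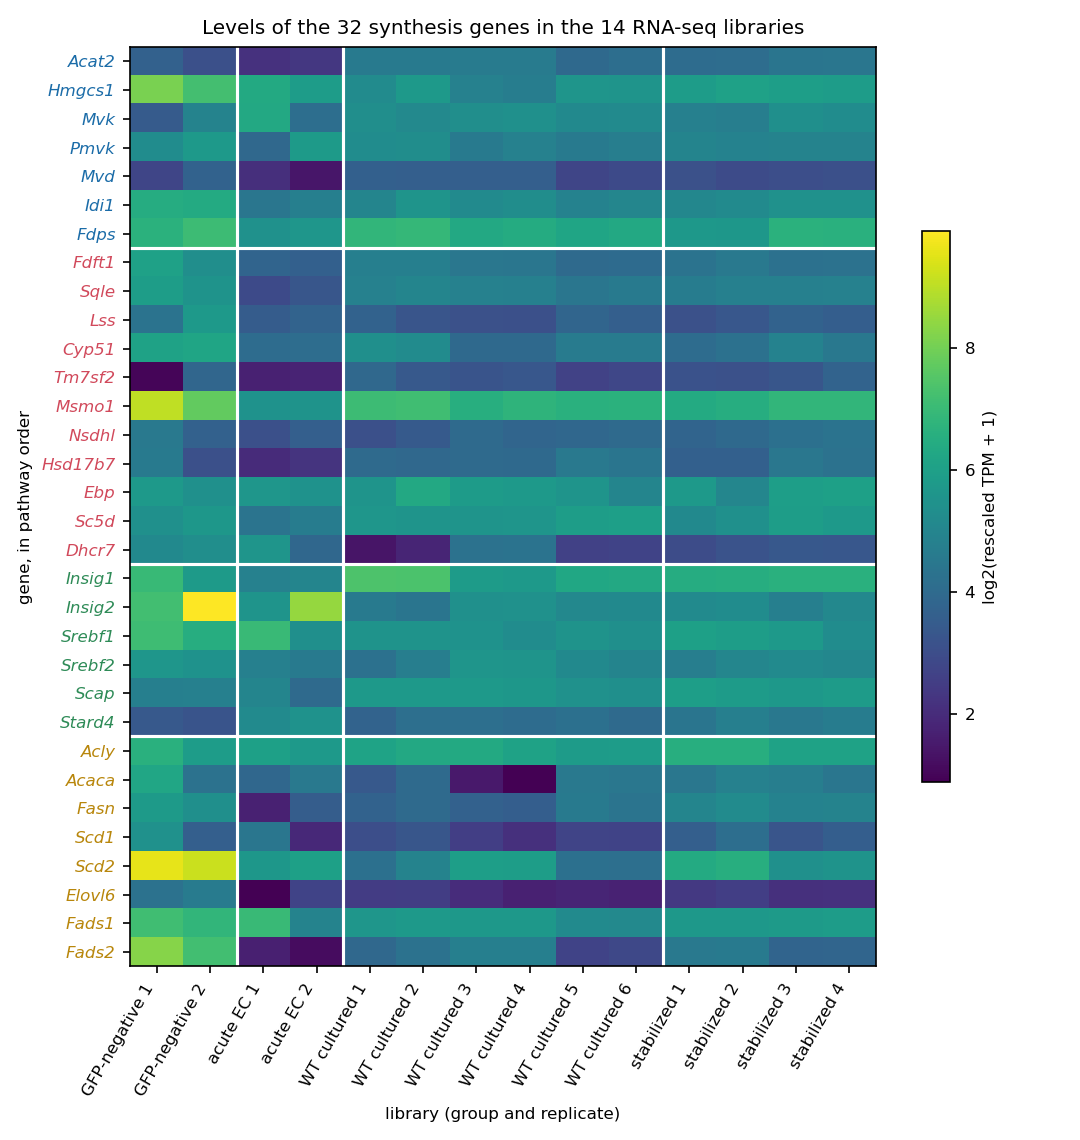
Heatmap of log2(rescaled TPM + 1) for the 32 genes in pathway order (rows) and the 14 libraries (columns), with white lines between steps and groups. By mean over the GFP-negative libraries Scd2, Insig2 and Msmo1 are highest (674, 558 and 373). The 204-base transcript Insig2-209 had a deposited TPM of 15.7 in GFP-negative library 1 and 288.9 in library 2. The CPM of Insig2 was 57.5 and 80.2 in GFP-negative cells and 57.4 and 66.0 in acute ECs. Fads2 goes from a mean of 226 in GFP-negative cells to 1.73 in acute ECs and 16.3 in WT cultures.

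Acute ECs were compared with the GFP-negative cells sorted from Tie2-GFP brains, the background of other brain cells measured in the same way. ECs had less transcript of the sterol genes Fdft1, Sqle and Msmo1 and of the fatty acid genes Fasn, Scd2, Fads1 and Fads2, and more of the sterol carrier gene Stard4. Calls required 3 things, namely an adjusted p below 0.05, a difference over 2-fold, and a deposited TPM reaching 5 in all libraries of whichever group was higher. On this rule 1 of the 32 genes was higher (8.3% of the 15102 genes tested) and 7 were lower (7.56% of genes tested), with a median log2 fold change of -1.08 over the 32 genes and -0.06 over all genes. In bulk samples fewer cells of a type and less RNA per cell cannot be told apart.

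None of the 7 mevalonate and isoprenoid genes was called, and 1 had an unadjusted p below 0.05 in edgeR. It was Hmgcs1, with CPM of 539.9 and 282 in GFP-negative cells and 194 and 141 in ECs, which did not overlap (log2 fold change -1.28 ± 0.42, adjusted p = 0.065), and it was lower under DESeq2. Among the 11 sterol genes 3 were lower. Sqle, whose enzyme epoxidizes squalene, had CPM of 80.6 and 53.9 in GFP-negative cells and 10.7 and 11.3 in ECs (-2.59 ± 0.46, adjusted p = 0.011). Msmo1 had 133 and 110.3 against 32.9 and 27.1 (-2.0 ± 0.37, adjusted p = 0.012), and Fdft1, which encodes squalene synthase, had 98.6 and 82.0 against 18.3 and 32.7 (-1.81 ± 0.44, adjusted p = 0.028). In each of these 3 genes both GFP-negative libraries lay above both EC libraries. The other 8 sterol genes had log2 fold changes of -1.56 (Cyp51) to 0.55 (Ebp) and were not called.

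Among the SREBP regulators Stard4 stood alone. Stard4, which encodes a protein that carries sterols between membranes, had CPM of 19.2 and 22.9 in GFP-negative cells and 149.6 and 162 in ECs (2.91 ± 0.36, adjusted p = 0.0036), and the groups were far apart. Fatty acid genes showed the lowest values in ECs, with a median log2 fold change of -2.80 and 4 of 8 genes lower. Fads2, the gene of the delta-6 desaturase, had 225 and 301 in GFP-negative cells and 7.80 and 3.48 in ECs (-5.52 ± 0.56, adjusted p = 0.0022). Fasn, the gene of fatty acid synthase, had 313 and 252 against 24.5 and 36.9 (-3.19 ± 0.38, adjusted p = 0.0034). Scd2, which encodes a stearoyl-CoA desaturase, had 2784 and 2291 against 346 and 354 (-2.84 ± 0.34, adjusted p = 0.0033), the highest counts of the 32 genes in GFP-negative cells. Fads1, the delta-5 desaturase gene, had 146 and 239 against 83.0 and 66.5 (-1.35 ± 0.38, adjusted p = 0.042), with less distance between the groups. Scd1 (-2.75 ± 0.69, adjusted p = 0.029) and Elovl6 (-2.93 ± 0.57, adjusted p = 0.014) also passed on p but were below the TPM minimum in a GFP-negative library. Acly and Acaca, whose enzymes make cytosolic acetyl-CoA and malonyl-CoA, had log2 fold changes of 0.02 ± 0.33 and -0.41 ± 0.37.

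An offset was added for the mean effective transcript length of each gene in each library, the length that the quantification used. It takes in both the isoforms to which reads were assigned and the effective length given to each isoform. With this offset 1 of the 32 genes was higher and 4 were lower. The genes called with and without it were Stard4, higher (4.2% of all genes called both ways), and Sqle, Msmo1, Scd2 and Fads2, lower (5.77% of all genes). Fads1 was the most affected, with -0.17 ± 0.79 under the offset. Without GFP-negative replicate 1 the lower genes were 3, namely Fasn, Scd2 and Fads2, and Sqle had an adjusted p of 0.069, Msmo1 of 0.071, Fdft1 of 0.14 and Fads1 of 0.058. Fdft1 was also not called without GFP-negative replicate 2 (adjusted p = 0.085) or acute EC replicate 1 (0.057), and Fads1 not without GFP-negative replicate 2 (0.30) or acute EC replicate 1 (0.057) or 2 (0.11). Under library-size scaling and under DESeq2, which moved the median of all genes to -0.44 and -0.26, 11 genes were lower in each case. All 5 oligodendrocyte markers were higher in both GFP-negative libraries (summed rescaled TPM 9590.3 and 1949) than in ECs (91.7 and 84.1, with Mog at 0 in acute library 2), and so were all 5 astrocyte markers (3458 and 6309 against 1450.3 and 188) and all 3 smooth muscle markers (13231 and 14387 against 716 and 522). Of 5 neuron markers 4 were higher in both (669.6 and 514 against 52.5 and 90.1), as were all 5 microglia markers (217 and 202 against 1.15 and 9.03, with Aif1 at 0 in both EC libraries). The part of these cells in the differences was not tested.

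**Figure D3:**
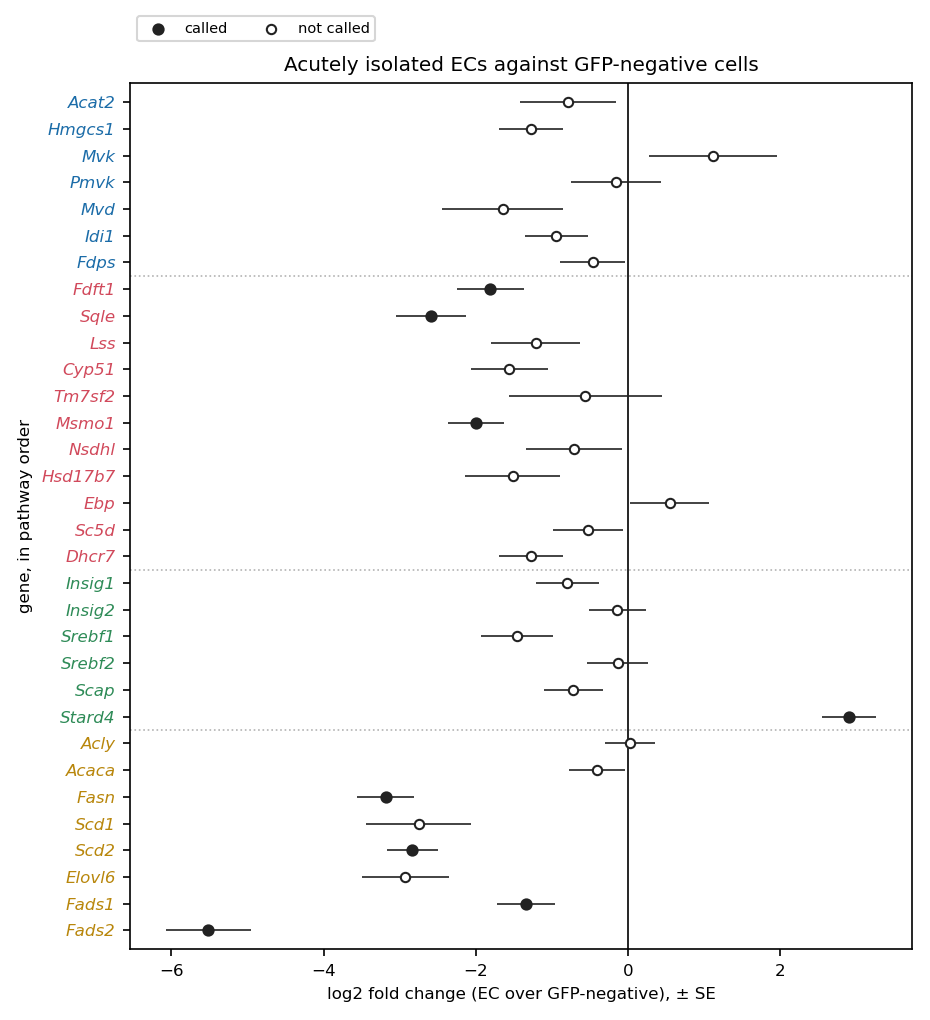
Log2 fold change ± SE (linear axis) of acute ECs over GFP-negative cells for the 32 genes in pathway order, with filled points for called genes. Fads2 lies furthest to the left at -5.52 and Stard4 furthest to the right at 2.91.

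WT cultures were compared with acute ECs to ask how the synthesis genes change when brain ECs are grown for 8 days. Genes of both early and late cholesterol steps rose, among them Acat2, Fdps, Sqle, Msmo1 and Hsd17b7, as did the regulators Insig1 and Scap, while Hmgcs1, Stard4 and Scd2 fell. Srebf1 was called higher on counts (1.57) but had -1.08 with an offset for transcript length. Of the 32 genes 8 were higher (13.5% of the 13784 genes tested) and 3 were lower (10.2% of genes tested). The median log2 fold change was 0.61 over the 32 genes and 0.10 over all genes. On adjusted p alone 13 were higher (23.9% of all genes) and 3 were lower (21.3% of all genes).

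Acat2, whose enzyme condenses acetyl-CoA at the entry to the pathway, had CPM of 5.72 and 5.30 in acute ECs and of 19.7 to 32.1 in WT cultures with a median of 25.2 (2.22 ± 0.32, adjusted p = 0.00095). Hmgcs1, which acts on the product of this step, had 194 and 141 in acute ECs and 47.7 to 72.3 with a median of 59.7 in WT cultures (-1.49 ± 0.27, adjusted p = 0.0025). In each of these 2 genes the groups did not overlap, and the call of Hmgcs1 was lost with the length offset (-0.88 ± 0.36, adjusted p = 0.070) and with summed wells (-1.39 ± 0.45, adjusted p = 0.051). Fdps had 28.6 and 27.4 against 55.9 to 79.6 with a median of 64.3 (1.24 ± 0.28, adjusted p = 0.0070), again without overlap. Mvd had 4.03 and 1.58 against 6.56 to 11.3 and passed on p (1.66 ± 0.47, adjusted p = 0.018) but not on the TPM minimum. The kinase genes Mvk and Pmvk and the isomerase gene Idi1 had log2 fold changes of -0.23 to 0.03 and were not called.

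Among the 11 sterol genes 10 had a positive log2 fold change and 3 were higher. Sqle had CPM of 10.7 and 11.3 in acute ECs and of 32.2 to 42.8 with a median of 38.6 in WT cultures (1.79 ± 0.27, adjusted p = 0.0012). Msmo1 had 32.9 and 27.1 against 77.0 to 139 with a median of 111.4 (1.83 ± 0.33, adjusted p = 0.0025). Both genes were separated from the acute values in all 6 wells. Hsd17b7, whose enzyme reduces a sterol ketone, had 14.9 and 14.8 against 25.1 to 38.99 with a median of 30.7 (1.07 ± 0.29, adjusted p = 0.016), close to the 2-fold minimum. It was not called without acute EC replicate 1 (adjusted p = 0.058) or 2 (0.058), nor without WT replicate 5 or 6, where its log2 fold change was 0.996 and 0.995, just under 2-fold. Tm7sf2 passed on p (2.14 ± 0.51, adjusted p = 0.0088) with CPM of 0.92 and 1.54 against 3.56 to 7.79, below the TPM minimum. Dhcr7, the gene of the last reductase step, was the one with a negative value (-0.65 ± 0.96) and was spread widely over WT cultures, with 28.3 and 29.7 in the 150-cycle libraries and 1.72 to 7.85 in the other 4. Most of its TPM in the 150-cycle libraries was on transcript Dhcr7-201 (deposited TPM 17.2 and 15.7), which was at 0 to 0.294 in the other WT libraries, while Dhcr7-202 had 0.484 to 1.92 there.

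Insig1, an SREBP target whose protein holds SREBPs back, had CPM of 49.4 and 44.3 in acute ECs and of 88.1 to 183 with a median of 104.5 in WT cultures (1.41 ± 0.41, adjusted p = 0.021). It was not called without acute EC replicate 1 (adjusted p = 0.084) or 2 (0.11). Srebf1 had 33.3 and 17.1 against 67.4 to 83.5 with a median of 74.4 (1.57 ± 0.33, adjusted p = 0.0050), whereas its rescaled TPM went the other way, from a mean of 84.8 to 43.1. Scap, whose protein escorts SREBPs, had 35.3 and 50.96 against 88.1 to 99.0 (1.13 ± 0.26, adjusted p = 0.0083), and was not called without acute EC replicate 1 (0.053). In CPM each of these 3 genes had separate groups. Stard4 had 149.6 and 162 in acute ECs and 21.8 to 39.4 with a median of 36.5 in WT cultures (-2.20 ± 0.26, adjusted p = 0.00042), the lowest value of the set, beside 19.2 and 22.9 in GFP-negative cells. Srebf2, the gene of the SREBP that acts most on sterol genes, had -0.81 ± 0.38 (adjusted p = 0.11), and Insig2 had -0.76 ± 0.49 (adjusted p = 0.24).

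Fatty acid genes showed 0 calls higher and 1 lower in edgeR (unadjusted p below 0.05 in 3 and 1 of the 8). Scd2 had CPM of 346 and 354 in acute ECs and of 48.3 to 183 with a median of 66.9 in WT cultures (-1.83 ± 0.55, adjusted p = 0.024), with the 150-cycle libraries (178 and 183) above the other 4 (48.3 to 80.2). It was not called without acute EC replicate 1 (adjusted p = 0.099) or 2 (0.097). Fads2 had 7.80 and 3.48 against 10.7 to 42.5 (2.22 ± 0.67, adjusted p = 0.025), Fasn 24.5 and 36.9 against 48.9 to 126 (1.36 ± 0.48, adjusted p = 0.043) and Acly 97.0 and 93.9 against 165 to 202 (0.91 ± 0.26, adjusted p = 0.018). These 3 passed on p without overlap in CPM, and missed either the TPM minimum or the 2-fold minimum. Acaca, which encodes acetyl-CoA carboxylase, had 5.28 and 4.28 in the 150-cycle libraries and 42.1 to 79.7 in the other 4 WT libraries, against 120.9 and 82.3 in acute ECs (-1.30 ± 0.92, adjusted p = 0.27).

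Acute ECs and cultures differed in effective transcript length, which depends on the isoforms assigned and on the length given to each isoform. Mvd, with transcript Mvd-201 of 1756 bases, had an effective length of 918.3 to 986.5 in acute ECs and 1403 to 2133 in WT cultures. The parts of isoform assignment and of effective length were not told apart. The effective transcript length was 1.8 times as long in WT cultures as in acute ECs at the median of the 32 genes (over 2 times in 13 of them) and 1.9 times at the median of all genes. With the length offset 6 genes were higher (12.9% of all genes) and 2 were lower (13.2% of all genes). Acat2, Sqle, Msmo1, Hsd17b7 and Insig1 were higher with and without it (10.6% of all genes were called higher both ways), and Stard4 was lower both ways (8.62% of all genes). Srebf1 changed sign, from 1.57 to -1.08 ± 0.41 (adjusted p = 0.054), with an effective length of 209 to 402 bases in acute ECs and 2957 to 3581 in WT cultures. Fdps (0.97 ± 0.30), Scap (0.996 ± 0.38), Hmgcs1 (-0.88 ± 0.36) and Scd2 (-0.76 ± 0.57) kept their sign and were not called, whereas Sc5d, the gene of a sterol desaturase, was higher (1.21 ± 0.31, adjusted p = 0.012) and Insig2 lower (-2.53 ± 0.56, adjusted p = 0.0056).

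**Figure D4:**
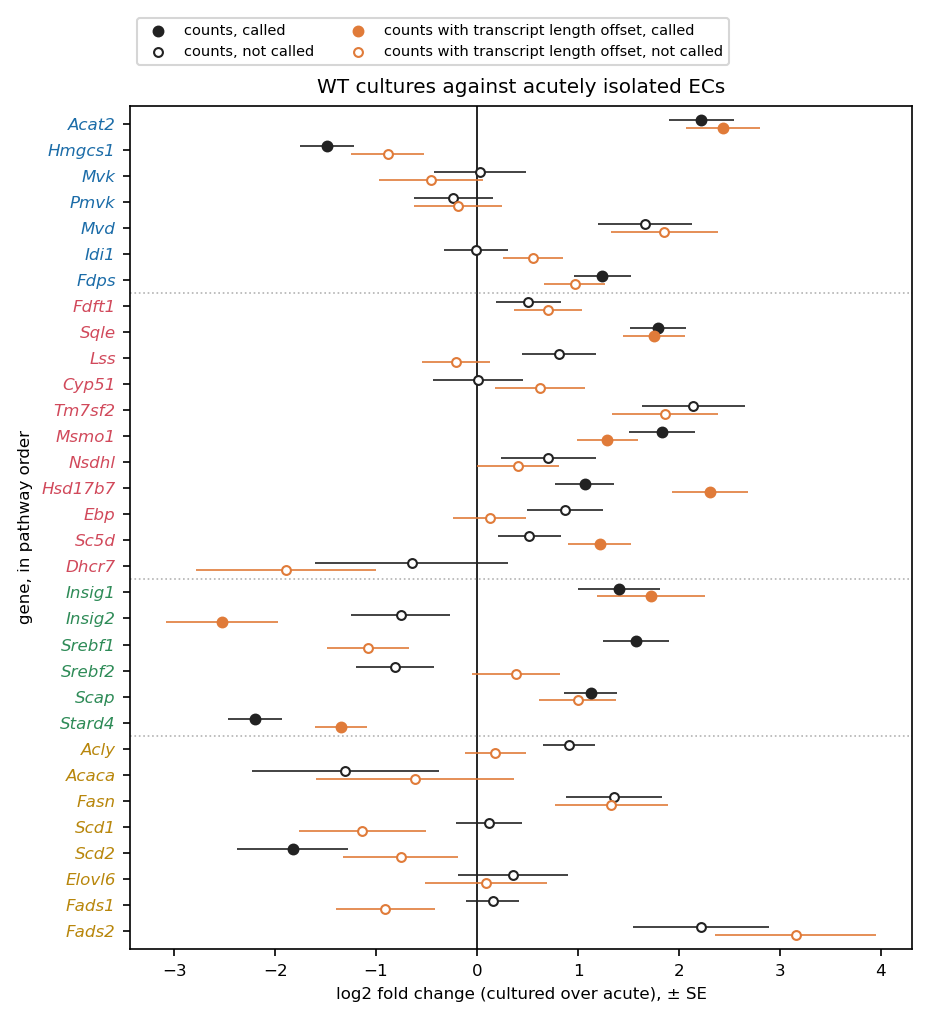
Log2 fold change ± SE (linear axis) of WT cultures over acute ECs for the 32 genes, from counts (black) and from counts with the transcript length offset (orange), with filled points for called genes. The black and orange points of Acat2 (2.22 and 2.44) and Sqle (1.79 and 1.75) lie close together, whereas those of Srebf1 lie on opposite sides of 0.

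When the 2 wells of each experiment were summed into 1 sample, Acat2, Sqle, Msmo1 and Srebf1 were higher and Stard4 was lower. Acat2, Sqle, Msmo1 and Stard4 were called under every alternative that was run. Against acute ECs, the 36-cycle cultures alone gave 8 higher and 5 lower genes, the latter with Dhcr7 and Insig2, and the method A cultures alone gave 6 lower genes, which also included Srebf2. Erythrocyte markers (3 genes) summed to a rescaled TPM of 14739 and 77792 in acute ECs and to at most 1.56 in WT cultures, where Alas2 was at 0 throughout. Pericyte markers (4 genes) summed to 758 and 873 in acute ECs and to 3.19 to 11.6 in WT cultures, and all 4 were lower in culture. Proliferation genes (5) summed to 1.90 and 11.2 in acute ECs and to 27.3 to 161 in WT cultures, with 4 of the 5 higher in every well. Smooth muscle markers (3) summed to 716 and 522 in acute ECs and to 1085 to 7499 in WT cultures, although Myh11 was lower in every well. Astrocyte markers (5) went from 1450.3 and 188 to 5.92 to 46.1, and oligodendrocyte markers (5) from 91.7 and 84.1 to at most 2.71, with Mog at 0 in every culture. Hmgcs1 and Scd2, both lower in culture, had a mean rescaled TPM of 212 and 674 in GFP-negative cells. Mitochondrial genes took 10.6% to 11.2% of counts in acute ECs and 0.667% to 1.58% in WT cultures. The part of these shifts in the culture differences was not tested.

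Isolation method was compared over the 8 cultures of 36 cycles, with genotype as a term. In edgeR 0 of the 32 genes were called higher in method B (3.54% of the 13125 genes tested) and 0 lower (3.77%), with 9 and 5 at an unadjusted p below 0.05. Passing on adjusted p alone, 8 genes were higher (27.8% of all genes) and 5 were lower (27.7% of all genes). The 8 were Mvk, Lss, Nsdhl, Hsd17b7, Dhcr7, Srebf2, Acaca and Fasn, and the 5 were Acly, Scd1, Scd2, Elovl6 and Fads2, all of the fatty acid list. Dhcr7 had the highest value (1.18 ± 0.22, adjusted p = 0.0036), with CPM of 1.72, 2.63, 7.01 and 7.59 under method A and 7.1985, 7.85, 11.9 and 12.3 under method B, which overlapped. Fads2 had the lowest (-0.86 ± 0.17, adjusted p = 0.0049), with 24.2 to 34.3 under method A and 10.7 to 25.1 under method B, also with overlap. In each genotype each method at 36 cycles is 1 experiment, so that method and experiment cannot be told apart. WT cultures of method A and B also differed in strain, which cannot be told apart from the method there.

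Stabilized cultures were compared with WT cultures to ask whether beta-catenin signaling changes the synthesis genes. Over all 10 cultures edgeR called 0 of the 32 genes higher (0% of the 12958 genes tested) and 0 lower (0% of genes tested), and DESeq2 called 0 as well. At an unadjusted p below 0.05, 5 were higher and 1 was lower, against 611 and 733 of all genes. The 5 were Hmgcs1, Srebf1, Stard4, Fasn and Scd1, and the lower one was Sc5d. Fasn had CPM of 144, 159, 162 and 162 in stabilized cultures and of 48.9 to 126 with a median of 67.6 in WT cultures (0.98 ± 0.28, adjusted p = 0.38). All 4 stabilized values of Fasn lay above the 6 WT values.

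Within each isolation method most of the 32 genes differed between stabilized and WT cultures on adjusted p, 25 in method A and 21 in method B at 36 cycles. Within method A, 2 genes were called higher (5.39% of 12848 genes) and 2 lower (0.918%), and on adjusted p alone 10 were higher (29.2% of all genes) and 15 were lower (26.8% of all genes). Within method B at 36 cycles, 1 was called higher (1.08% of 12835 genes) and 0 lower (0.28%, and 1 at an unadjusted p below 0.05), and on adjusted p alone 21 were higher (19.5% of all genes) and 0 lower (17.6% of all genes). Each comparison rests on 2 wells of 1 experiment per genotype, so that genotype and experiment cannot be told apart, and under method A the strains differed as well. Of the 32 genes 17 (53.1%) were lower in stabilized cultures of method A and higher in those of method B, against 2869 of 12496 genes (23.0%) in all, and these 17 included 6 of 7 mevalonate and isoprenoid genes and 7 of 11 sterol genes.

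The interaction of stabilization with method, given as the log2 fold change under method B minus that under method A, was tested over the 8 cultures of 36 cycles. It was positive at an adjusted p below 0.05 in 18 of the 32 genes (25.1% of the 13356 genes tested) and negative in 4 (24.5% of genes tested), with a median of 0.54 over the 32 genes and 0.03 over all genes. Fdps, which supplies farnesyl diphosphate to squalene synthase, had the largest value. Its CPM under method A was 79.6 and 78.7 in WT and 31.2 and 31.1 in stabilized wells, and under method B it was 56.3 and 63.5 in WT and 77.6 and 76.8 in stabilized wells. The order of the genotypes was thus opposite in the 2 methods (interaction 1.77 ± 0.09, adjusted p = 2.2e-05), with called lower values within method A (-1.38 ± 0.08). Cyp51, the gene of lanosterol demethylase, had 60.8 and 61.9 in WT and 26.0 and 29.7 in stabilized wells of method A (-1.18 ± 0.10, called), and 36.6 and 38.5 against 43.7 and 43.0 under method B (interaction 1.40 ± 0.11, adjusted p = 8.4e-05). Insig1 had 177 and 183 against 96.8 and 96.4 under method A, and 100.1 and 109 against 127 and 124 under method B (interaction 1.22 ± 0.09, adjusted p = 6.9e-05).

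Positive interactions passed in 6 of 7 mevalonate and isoprenoid genes (0.70 for Mvk to 1.77 for Fdps, with Hmgcs1 at 0.01 ± 0.15) and in 8 of 11 sterol genes (0.36 for Lss to 1.60 for Tm7sf2). Dhcr7 was negative (-0.96 ± 0.21, adjusted p = 0.0059), with 1.72 and 2.63 against 7.01 and 7.59 under method A and 7.1985 and 7.85 against 11.9 and 12.3 under method B, where stabilized wells were higher and passed on adjusted p in both. Among the regulators 1 of 6 was positive (Insig1) and 2 were negative (Insig2 and Srebf1). In the fatty acid list 3 of 8 were positive (Elovl6, Fads1 and Fads2, 0.84 to 0.87) and Fasn was negative (-0.68 ± 0.14, adjusted p = 0.0038). The smallest of the values that passed depended on single wells, with Lss at 0.27 and an adjusted p of 0.12 without WT replicate 6 and 0.30 (0.14) without stabilized replicate 4, and likewise not passing without WT replicate 1 (0.073) or stabilized replicate 1 (0.082), 2 (0.052) or 3 (0.083). Srebf1 did not pass without WT replicate 5 (0.060) or stabilized replicate 1 (0.085) or 4 (0.097), nor Hsd17b7 without stabilized replicate 3 (0.054). With the length offset Lss (0.34, adjusted p = 0.30), Hsd17b7 (0.37, 0.073) and Srebf1 (-0.27, 0.32) did not pass, nor did Srebf1 with library-size scaling (-0.18, 0.11).

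The fatty acid genes Scd1, Scd2 and Fasn passed on adjusted p as higher in stabilized cultures of both methods. Scd2 had CPM of 48.3 and 80.2 in WT and 208 and 222 in stabilized wells of method A (1.70 ± 0.21, adjusted p = 0.0012), and 52.0 and 53.6 against 127 and 134 under method B (1.30 ± 0.06, adjusted p = 0.00034), called in each. The WT libraries of 150 cycles had 178 and 183, within the range of the stabilized wells, and Scd2 did not pass over all 10 cultures (0.78 ± 0.44, adjusted p = 0.55). With a term for method over the 36-cycle cultures Scd2 was called higher (1.501 ± 0.16, adjusted p = 0.0034). Fasn was called within method A (1.13 ± 0.10, adjusted p = 0.00069) and passed on p within method B (0.43 ± 0.07, adjusted p = 0.0075). Fads2 had 10.7 and 12.3 against 24.7 and 25.1 under method B (1.11 ± 0.08, adjusted p = 0.00089) and 24.2 and 29.9 against 34.3 and 33.3 under method A (0.28 ± 0.11, adjusted p = 0.061). Scd1 passed on p in both methods with 0.64 ± 0.17 and 0.61 ± 0.09.

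Marker lists differed between the cultures of the 2 isolation methods and in part between those of the 2 genotypes. Smooth muscle markers (3 genes) summed to a rescaled TPM of 1567 and 1085 in WT and 762 and 873 in stabilized wells of method A, and to 7499 and 7025 in WT and 6427 and 6032 in stabilized wells of method B, with Myh11 between 2.25 and 7.75 in all 8. Proliferation genes (5) summed to 129 and 161 against 142 and 144 under method A, and to 27.3 and 28.1 against 59.2 and 75.5 under method B. Endothelial markers (6) summed to 3888 and 4174 against 5322 and 5121 under method A and to 1714 and 1660 against 2328 and 2469 under method B. The part of these in the interaction was not tested.

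**Figure D5:**
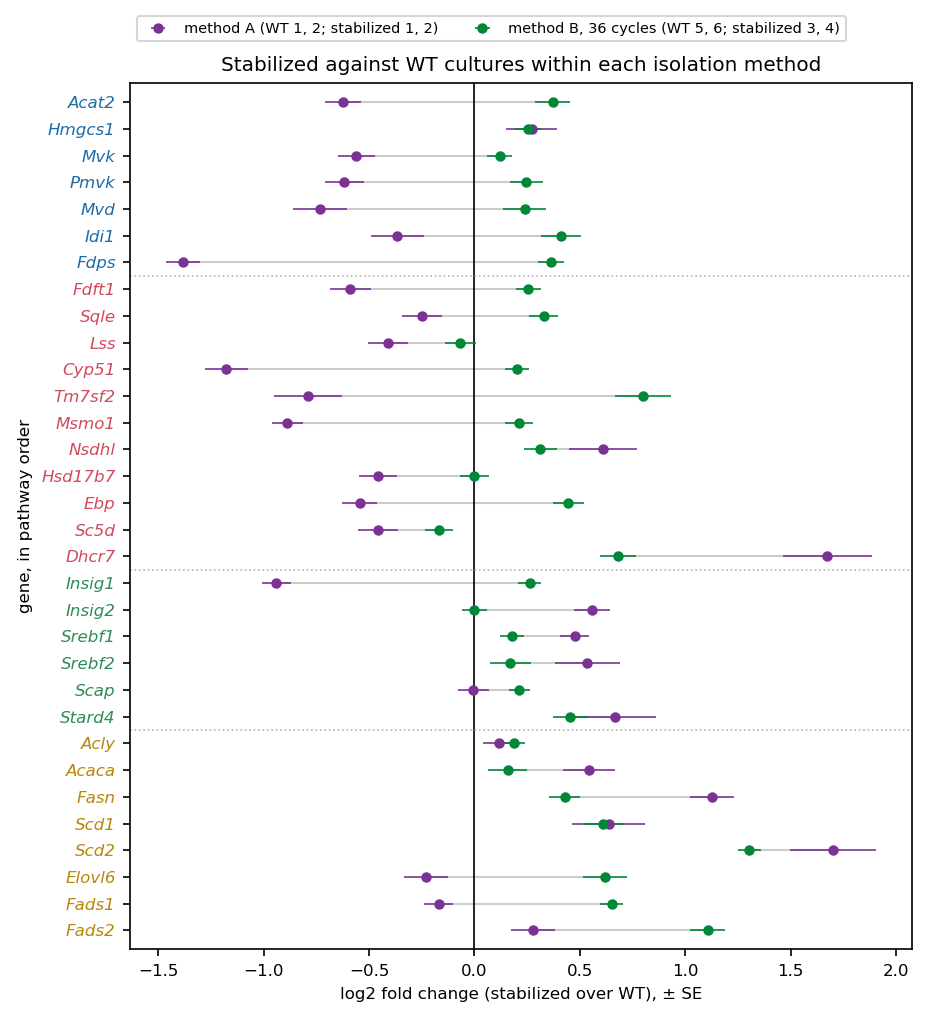
Log2 fold change ± SE (linear axis) of stabilized over WT cultures for the 32 genes, within method A (purple) and within method B at 36 cycles (green). For Fdps and Cyp51 the purple points lie at -1.38 and -1.18 and the green ones at 0.36 and 0.20, whereas both points of Scd2 lie to the right (1.70 and 1.30).

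Further genes of sterol and fatty acid handling were taken from lists of the pathway. Of 10 genes of sterol uptake, transfer and esterification 2 were higher and 2 lower in WT cultures than in acute ECs, beside 13.5% and 10.2% of all genes here and in the lists that follow. Soat1, which esterifies cholesterol for storage, went from a mean rescaled TPM of 5.07 to 72.3 (2.44 ± 0.33, adjusted p = 0.00072), and Ch25h, which makes 25-hydroxycholesterol, from 4.42 to 69.8 (3.24 ± 0.84, adjusted p = 0.013). Lrp8, a lipoprotein receptor gene, went from 158 to 7.57 (-4.78 ± 0.24, adjusted p = 1.5e-05). In acute ECs Scarb1, the gene of a receptor for high-density lipoprotein, and Lrp8 were higher than in GFP-negative cells (4.66 ± 0.39 and 4.11 ± 0.40), and Soat1 was lower (-3.33 ± 0.52).

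Of 6 genes of sterol efflux and LXR signaling 1 was lower in culture, the cholesterol exporter gene Abca1 (-2.24 ± 0.39, adjusted p = 0.0021), and 0 were higher in edgeR (unadjusted p below 0.05 in 1). Among 12 further fatty acid synthesis and elongation genes tested 2 were higher and 2 lower, with Me1, the gene of cytosolic malic enzyme, at 5.95 ± 0.54 (adjusted p = 0.00013), Acacb, which encodes the mitochondrial form of acetyl-CoA carboxylase, at -4.68 ± 0.76 (0.0015) and the acyl-CoA synthetase gene Acsl3 at -2.53 ± 0.39 (0.0013). Among fatty acid oxidation genes Cpt1a, the gene of the carnitine transferase that admits fatty acids to mitochondria, was lower (-1.36 ± 0.34, and -0.59 with the length offset). Of 9 isoprenoid branch genes 1 was higher (Coq2, 1.38 ± 0.48) and 1 lower (Pggt1b, -1.57 ± 0.39), and among genes of SREBP processing Mbtps2, the gene of a protease that releases SREBPs, was lower (-2.86 ± 0.60). With the length offset Pggt1b had -0.09. Near copies of the genes described here were low, with Idi2 at 0 in every library, Acat3 at a rescaled TPM of at most 3.66 and Scd3 at 5.56 in GFP-negative library 1 and at most 0.0795 in the others.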

How the data were processed

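RNA-seq and ATAC-seq of mouse brain cells were analysed from the deposited files. Per the submitters' processing notes the authors quantified RNA-seq reads with Salmon 0.14.0, which gave estimated counts and TPM for 140198 transcripts, and aligned ATAC-seq reads to GRCm38 with HISAT2 2.1.0, with MACS2 2.1.2 as the peak caller for each library. The deposited peak files give a score, a signal that is a fold enrichment ratio, and −log10 p and q-values. EBSeq, which the authors used for their own comparisons, was not used here.

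The members and gene lists were chosen with earlier results of these data known. Transcripts were summed by gene identifier and estimated counts were rounded. For the 27 symbols with several identifiers the most abundant identifier was kept. Genes were tested with edgeR 4.0.16 in R 4.3.3 (quasi-likelihood test, TMM scaling, low-count filter, Benjamini-Hochberg adjustment over all genes tested), with a prior count of 2 for log2 CPM. A call required an adjusted p below 0.05, more than 2-fold change and a deposited TPM of at least 5 in each replicate of the higher group, and the interaction used adjusted p alone. The fits were tested on simulated data. Members were named where called in any comparison or highest or lowest of their list in acute ECs, and other pathway genes by the 3 largest calls of a list. Alternatives were DESeq2 1.42.0, other scalings and filters, an offset for transcript length, a replicate block, summed wells, subsets of cultures and leaving out each library. The TPM minimum on rescaled TPM, adjusted p within methods, the interaction with the length offset, rescaled TPM levels and peaks at any transcript start were chosen after seeing the data. No replicate pair differed by as little as sampling noise, the lowest chi-square per gene between replicates being 7.82. The separate libraries titled as cerebrum were not analysed here. Some pathway genes are not reported here.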

Additional observations from a re-analysis of the deposited data

Results flagged for a closer look

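The effect of stabilization, as a log2 fold change, differed between isolation methods in 22 of the 32 genes by the test of the interaction (method B minus method A, edgeR), 18 of them positive and 4 negative, beside 25.1% and 24.5% of all genes. In the mevalonate and isoprenoid steps the difference was 1.02 for Acat2, 0.70 for Mvk, 0.88 for Pmvk, 0.99 for Mvd, 0.80 for Idi1 and 1.77 for Fdps. In the sterol steps it was 0.87 for Fdft1, 0.60 for Sqle, 0.36 for Lss, 1.40 for Cyp51, 1.60 for Tm7sf2, 1.12 for Msmo1, 0.48 for Hsd17b7, 1.01 for Ebp and -0.96 for Dhcr7. Among the regulators it was 1.22 for Insig1, -0.54 for Insig2 and -0.28 for Srebf1, and among the fatty acid genes -0.68 for Fasn, 0.87 for Elovl6, 0.84 for Fads1 and 0.85 for Fads2. Genotype and experiment cannot be told apart within a method.

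Of 64 groups of 4 to 10 samples tested for a value far from the others, 1 stood out, the Fasn CPM of 144 in stabilized replicate 1, the lowest of 4. Chance gives such a value in about 1 in 20 groups.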

How the results depend on the processing

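Counts are of the 32 genes. In culture against acute ECs, 8 were higher and 3 lower. Adjusted p alone gave 13 higher, and summed wells gave 4 higher and 1 lower. The 36-cycle cultures alone gave 5 lower and method A alone 6 lower. Leaving out each library gave 6 to 8 higher and 2 to 3 lower. With the length offset Srebf1 changed to -1.08. In acute ECs against GFP-negative cells the 7 lower genes became 11 with DESeq2, with library-size scaling and with all 14 libraries in 1 fit, 4 with the length offset, and 3 to 7 when each library was left out. In stabilized against WT cultures 0 and 0 became 1 higher with a term for method (Scd2), 2 higher and 2 lower within method A (10 and 15 on adjusted p alone) and 1 higher within method B (21 on adjusted p alone), and stayed at 0 when each library was left out. For method B against A, adjusted p alone gave 8 higher and 5 lower. Dropping the TPM minimum, or setting it on rescaled TPM, gave 1 higher, WT cultures alone 1 higher and 1 lower, stabilized cultures alone 1 higher, and library-size scaling 1 lower. The interaction passed in 20 to 25 genes when each library was left out. Library-size scaling shifted the all-gene median (log2) to 0.30 for culture, -0.44 for acute ECs against GFP-negative cells, -0.12 for stabilized cultures, -0.13 for method and 0.13 for the interaction. Over the genes called, 206 values in culture, 91 in acute ECs and 228 in the interaction kept direction and call under an alternative, 24, 13 and 14 lost the call, and 1 reversed. The cause of these changes was not tested, except that summed wells and left-out libraries leave fewer samples.

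The labels do not say that replicate numbers pair the samples, and deviations of same-numbered samples correlated at -0.04 and 0.04 (culture), 0.07 (acute) and 0.0004 to 0.51 (stabilized). A replicate block gave 8 higher and 6 lower genes in culture, 1 and 7 in acute ECs, and 1 (Fasn) and 0 in stabilized cultures, where it called 130 and 34 of all genes.

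Differences in transcript assignment and effective length between read types, and 2 acute libraries per group, limit the culture values. Libraries held 24284843 counts or more, and genes near 1 CPM, such as Tm7sf2 in acute ECs (0.92 and 1.54), rest on the fewest reads.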

Other observations

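In other genes of the pathway, stabilization interacted with method in the same test of all genes. Thrsp, which encodes a factor of lipogenic tissues, had 2.67 ± 0.46, Pdk4, which encodes a kinase that restrains pyruvate oxidation, had 1.66 ± 0.15, and Nr1h3, the gene of the sterol receptor LXR alpha, had 1.58 ± 0.21. Of 12 further fatty acid synthesis and elongation genes tested 8 were positive and 3 negative, and of 12 fatty acid oxidation genes 6 were positive and 2 negative, beside 25.1% positive and 24.5% negative of all genes. Nus1, whose product acts in dolichol synthesis, had -1.44 ± 0.18, and Gramd1b, the gene of a sterol transfer protein, had -1.48 ± 0.23.

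Between the isolation methods, values were lower in method B for Ch25h (-1.59 ± 0.19), Nr1h3 (-1.34 ± 0.32) and Gramd1a (-1.06 ± 0.10), each called. Method and experiment cannot be told apart here. In acute ECs against GFP-negative cells Me1 had -5.34 ± 0.61 and Ppargc1a, the gene of a coactivator of mitochondrial biogenesis, -4.75 ± 0.50, whereas Acacb had 2.91 ± 0.47 and Cpt1a, the gene of the carnitine transferase that admits fatty acids to mitochondria, 1.61 ± 0.32, each called.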
